A study of Mus musculus with 45 samples.

Results

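A set of 10 genes of the Hippo pathway was examined in the translating mRNA of mouse kidney tubules, in every genotype and sex. The genes were the coactivators Yap1 and Wwtr1 (the gene of TAZ), their DNA-binding partner Tead1, the kinases Lats1 and Lats2, the regulators Amotl2 and Ajuba, and the target genes Ankrd1, Ccn1 and Ccn2. The 10 were listed by name, with earlier results of these data known. All 10 were among the 15828 protein-coding genes tested in both sexes, of 55401 genes in the count tables. Ccn1 and Ccn2 are also known as Cyr61 and Ctgf. In the GRCm38 annotation of the files, Ankrd1 lies at chr19:36111961-36120099 (- strand), Ccn1 at chr3:145646976-145649981 (- strand), Amotl2 at chr9:102716672-102733418 (+ strand) and Ajuba at chr14:54567472-54577558 (- strand).

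In the Hippo pathway, the MST kinases activate LATS1 and LATS2, which phosphorylate YAP and TAZ and so keep them out of the nucleus. When the kinases are inactive, YAP and TAZ enter the nucleus, bind TEAD factors and raise the transcription of genes for growth, the cytoskeleton and the matrix. Much of this control acts on protein location and modification, which an mRNA level does not show, and several targets, among them Amotl2, Lats2 and Ajuba, are themselves regulators of the pathway. In the kidney the pathway is known for its part in nephron development and has been studied in cyst growth.

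The 45 mice were 7 weeks old (postnatal day 49). Doxycycline, which switches on Cre in these mice, was given by mouth between postnatal days 28 and 42. Noncystic mice were Pkd1fl/+, Pkd1KO mice were Pkd1fl/fl, and Pkd1KO+ciliaKO mice were Pkd1fl/fl; Kif3afl/fl, so that the last group also lost a motor subunit needed for cilia. Mice of every group, controls included, carried 1 copy each of R26Rpl10a, Pax8rtTA and TetOCre. There were 8 noncystic, 7 Pkd1KO and 9 Pkd1KO+ciliaKO males, and 7 noncystic, 8 Pkd1KO and 6 Pkd1KO+ciliaKO females, each mouse being 1 sample. In translating ribosome affinity purification (TRAP), ribosomes with the L10a-EGFP fusion protein are pulled down, so the libraries hold mRNA from Pax8-expressing nephron cells in which Cre had been active. The noncystic mice had also received Cre and doxycycline and had 1 floxed Pkd1 allele.

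Between 80874556 and 132958186 fragments were counted per mouse, and no member fell below 162 counts in any mouse, so that counting error was small beside the spread between mice. Pkd1 counts over the whole gene did not separate the genotypes, at 36.3 to 84.9 CPM in noncystic and 33.2 to 49.8 CPM in Pkd1KO males, where CPM is the count scaled to library size and not to transcript length. Kif3a was at 4.90 to 7.45 CPM in the 9 Pkd1KO+ciliaKO males and at 13.8 CPM or more in the other males. In females it went against the label in the library labelled noncystic replicate 5, at 6.69 CPM, and in the library labelled Pkd1KO+ciliaKO replicate 6, at 20.7 CPM. Among males, noncystic replicate 3, Pkd1KO replicate 4 and Pkd1KO+ciliaKO replicates 6 and 8 were judged to stand apart in overall expression. No measure of this is given here, and the paper reports no significant outliers in its principal component analyses. Proximal tubule markers summed to 6792 to 16000 CPM over the 45 mice and podocyte markers to 58.9 to 208.2 CPM, but no defining marker of podocytes, endothelial cells or macrophages was at 0 in any mouse. In tissue of many cells, fewer cells of a type and less RNA per cell cannot be told apart.

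Compared per length, the members spanned an order of magnitude and more. Median values over the 45 mice in TPM, which is scaled to transcript length and library depth, were highest for Amotl2 (77.5), which binds YAP and holds it at cell junctions and in the cytoplasm, for Wwtr1 (71.6) and for Ajuba (71.4), a LIM protein that binds and restrains the LATS kinases. Ccn1, a secreted matricellular protein, had a median of 56.5 TPM, Tead1 of 46.5 TPM and Yap1 of 39.9 TPM. The lower levels were those of Ccn2, a secreted relative of Ccn1, at 20.8 TPM, of Lats1 at 15.6 TPM, of Lats2 at 13.8 TPM and of Ankrd1, a nuclear ankyrin repeat protein, at 5.84 TPM. TPM values were scaled by the authors separately for each sex. The TPM values of a library did not add up to 1 common total. Their sums ran from 727800 in Pkd1KO male replicate 2 to 946900 in Pkd1KO female replicate 1. Both points bear on these medians over both sexes.

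The members differed widely in how steady they were between mice. Within groups, the SD of log2 CPM was 0.085 for Wwtr1, 0.088 for Lats1 and 0.10 for Yap1, and only 1.06%, 1.39% and 5.21% of the 15828 genes had a smaller SD. Tead1 (SD 0.17), Lats2 (0.20), Ajuba (0.20) and Amotl2 (0.27) lay in the middle of the range, with 33.0% to 60.4% of genes below them. The 3 secreted or nuclear target proteins were at the other end, with an SD of 0.61 for Ccn2, 0.69 for Ankrd1 and 0.82 for Ccn1, above 96.1%, 97.8% and 99.0% of genes. Wwtr1, Lats1 and Yap1 were thus among the least variable genes between mice of 1 group, and the classical targets among the most variable.

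**Figure D1:**
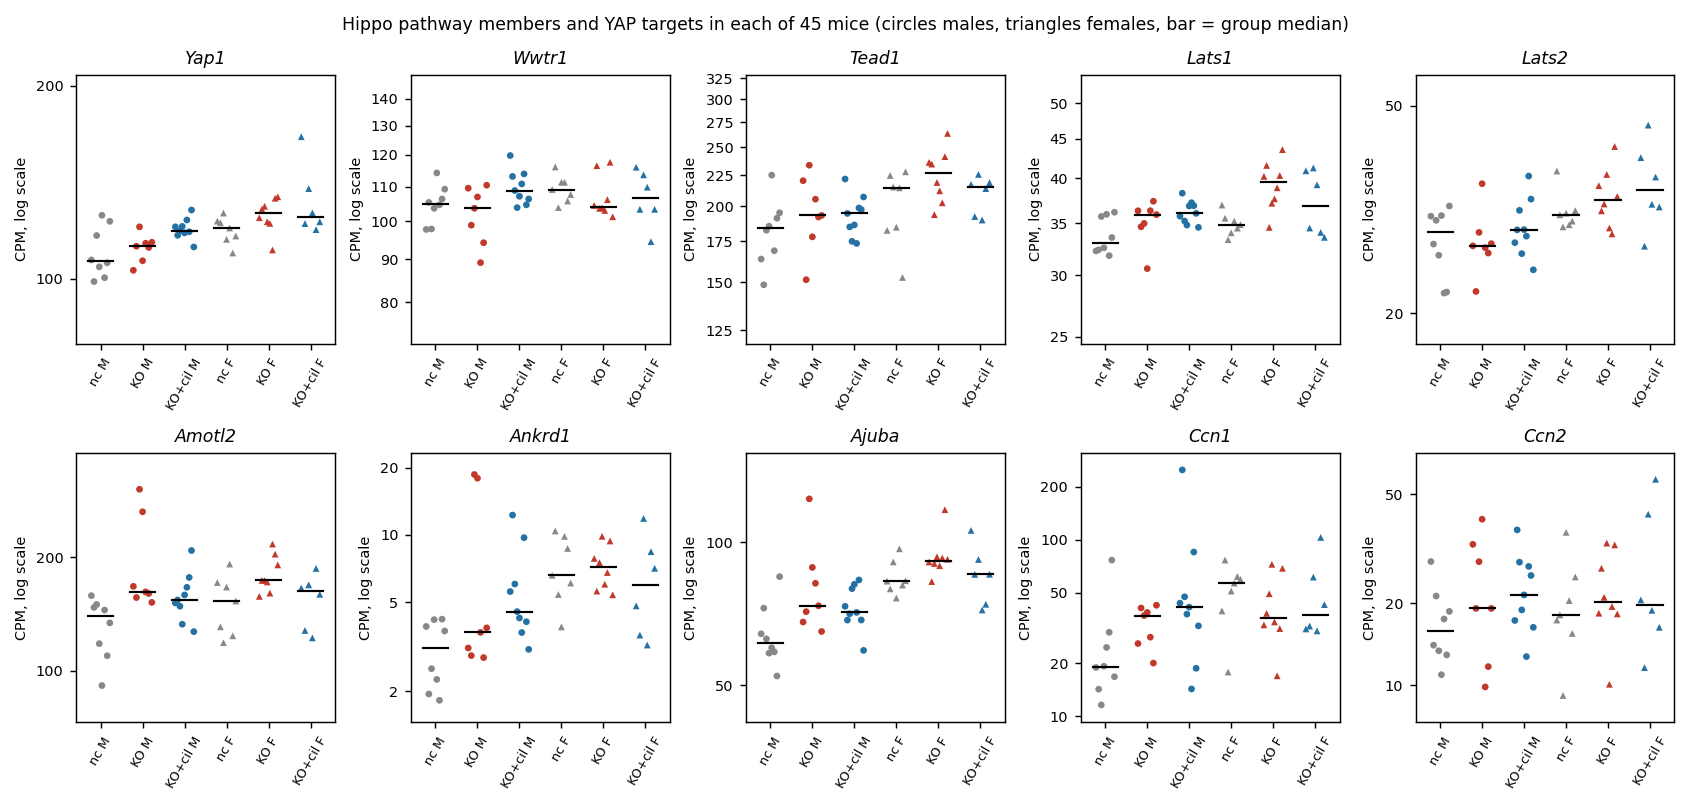
Level of each of the 10 members in each of the 45 mice, in CPM on a log scale whose range differs between panels; nc is noncystic, KO is Pkd1KO, KO+cil is Pkd1KO+ciliaKO, M is male (circles), F is female (triangles), and bars are group medians. The groups overlap for every member, and Ankrd1 stands out in 2 Pkd1KO males at 18.6 and 17.9 CPM and Ccn1 in 1 Pkd1KO+ciliaKO male at 249.5 CPM.

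No call was made for Yap1, Wwtr1 or Tead1 in the 6 comparisons of genotypes. Yap1 ranged from 99.0 to 125.6 CPM (median 106.4) in noncystic males, from 103.1 to 120.5 (112.4) in Pkd1KO males and from 112.1 to 128.0 (118.8) in Pkd1KO+ciliaKO males. In females it ranged from 109.7 to 126.6 CPM (120.0) in noncystic, from 110.9 to 134.2 (126.4) in Pkd1KO and from 119.3 to 166.5 (124.7) in Pkd1KO+ciliaKO mice. The mice of the 3 genotypes overlapped in both sexes. The log2 fold change of Yap1 in Pkd1KO against noncystic mice was 0.02 (SE 0.061) in males and 0.08 (SE 0.048) in females, with 95% intervals of -0.11 to 0.15 and -0.02 to 0.18, so that changes of more than 1.11-fold up in males lay outside the interval. Wwtr1 had log2 fold changes of -0.04 (SE 0.057) and -0.03 (SE 0.046) in the same comparisons. Tead1 ranged from 148.5 to 263.5 CPM over all mice, with log2 fold changes of 0.10 (SE 0.095) in males and 0.17 (SE 0.087) in females.

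Among the kinases, Lats1 came nearest to the threshold, in females. It lay between 33.3 and 37.0 CPM (median 34.9) in noncystic, between 34.6 and 43.6 CPM (39.6) in Pkd1KO and between 33.6 and 41.3 CPM (36.9) in Pkd1KO+ciliaKO females. Most Pkd1KO females lay above the noncystic range, though the groups overlapped. The log2 difference of Pkd1KO from noncystic females was 0.17 (SE 0.050), with an adjusted p of 0.0727 by edgeR's quasi-likelihood test. Lats2 ranged from 21.9 to 45.9 CPM over all mice and its log2 fold change in Pkd1KO against noncystic mice was 0.00 (SE 0.11) in males and 0.10 (SE 0.080) in females. Lats2 shares 2955 of its 6971 exon bases with Gm49361 on the same strand, and Gm49361 had a median count of 0 against 3000 for Lats2. How fragments in shared bases were assigned is not given in the sources used here, so the Lats2 level may leave out fragments from them. Yap1 and Ccn2 share 116 and 665 exon bases with Gm20416 and Gm15270 on the opposite strand, whose median counts were 5 and 79.

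In males, Pkd1KO was compared with noncystic mice to ask what loss of Pkd1 changed. No member passed an adjusted p of 0.05 by edgeR, against 6.30% of all genes tested. DESeq2 called 1 member and 10.3% of all genes, and 3 of the 10 had an unadjusted p below 0.05, against 22.1% of all genes. The median log2 fold change of the members was 0.22, against -0.01 over all genes, with 8 of 10 above 0. The 3 with an unadjusted p below 0.05 were Amotl2, Ankrd1 and Ajuba.

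Amotl2 ranged from 91.3 to 158.3 CPM (median 139.4) in noncystic males and from 151.9 to 303.7 CPM (162.0) in Pkd1KO males. The lowest Pkd1KO male lay within the noncystic range and replicates 3 and 4, at 303.7 and 264.6 CPM, lay far above it. The log2 difference was 0.57 (SE 0.17), with an adjusted p of 0.0523 by edgeR and 0.0137 by DESeq2, the member that DESeq2 called. Over 25 alternative settings and tools the adjusted p ranged from 0.0137 to 0.202, with 5 at or below 0.05.

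Ankrd1 ranged from 1.82 to 4.20 CPM (median 3.12) in noncystic males. In Pkd1KO males it was at 3.12, 2.89, 18.6, 17.9, 3.67, 2.83 and 3.84 CPM in replicates 1 to 7. The other 5 mice lay within the noncystic range, and replicates 3 and 4 far above it. The log2 difference was 1.30 (SE 0.45, adjusted p = 0.0983 by edgeR), and it was 0.91 without replicate 3 and 0.92 without replicate 4. Over 25 alternatives it ranged from 0.30, with voom and quality weights that count unusual libraries less, to 1.45, and none called Ankrd1. Ajuba was also highest in replicate 3, at 123.3 CPM against a noncystic range of 52.3 to 84.6 CPM, and its log2 difference was 0.34 (SE 0.13, adjusted p = 0.135 by edgeR).

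The same 2 mice had the highest sums of the 7 tubule injury genes in their group, 1862 and 1483 CPM, against a group median of 726 CPM. Spp1 weighed most in these sums, with a median of 1000 CPM over all mice, followed by Clu at 125 CPM. Replicate 4, which was among the males that stood apart, also had the highest sums in its group for macrophage markers (316.9 CPM, all 7 detected in all mice), endothelial markers (483.8 CPM) and podocyte markers (208.2 CPM). In replicate 3 these sums were 132.3, 121.3 and 105.3 CPM. The part of injury genes and of these cell types in the Amotl2, Ankrd1 and Ajuba values was not tested. Without the 4 males that stood apart, the log2 differences were 0.51 for Amotl2, 0.89 for Ankrd1 and 0.32 for Ajuba.

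The difference between Pkd1KO and Pkd1KO+ciliaKO mice addressed which changes depend on cilia. In males, no member passed by edgeR or DESeq2, against 3.77% of all genes by edgeR, and 1 member, Yap1, had an unadjusted p below 0.05, against 19.7% of all genes. The log2 difference of Yap1 was -0.10 (SE 0.046, adjusted p = 0.239 by edgeR). The median log2 difference of the members was -0.01, against 0.01 over all genes. Intervals were narrow for the coactivators and kinases, where the 95% interval for Wwtr1 was -0.22 to 0.01 and for Lats1 -0.14 to 0.06. They were wide for the targets, at -0.60 to 1.31 for Ankrd1 and -1.93 to 0.07 for Ccn1, which leaves differences of several fold within them.

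**Figure D2:**
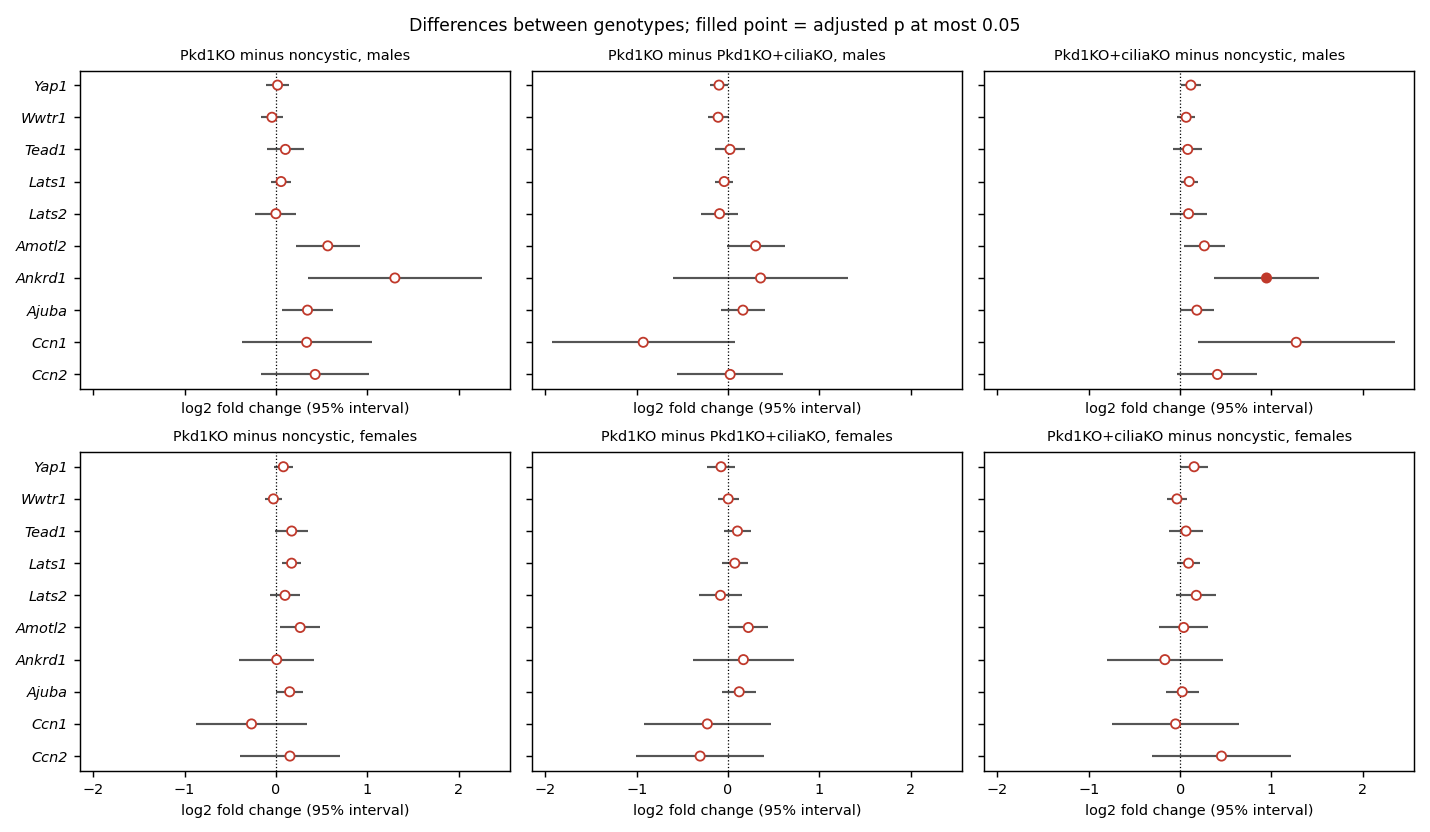
Log2 fold change of each member (point) with its 95% interval (line) in the 6 pairwise comparisons of genotypes, from edgeR's quasi-likelihood test; filled points have an adjusted p of at most 0.05. Ankrd1 in Pkd1KO+ciliaKO against noncystic males, at 0.95, is the filled point, and the intervals of Ankrd1, Ccn1 and Ccn2 are the widest in each panel.

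Ankrd1 was the member that passed the test in a comparison of genotypes, in Pkd1KO+ciliaKO against noncystic males. It ranged from 3.08 to 12.3 CPM (median 4.54) in the 9 Pkd1KO+ciliaKO males, against 1.82 to 4.20 CPM (3.12) in noncystic males. Replicates 2 and 7 were highest, at 12.3 and 9.73 CPM, and the groups overlapped. The log2 difference was 0.95 (SE 0.28, adjusted p = 0.0384 by edgeR). In this comparison 1 of 10 members was called, against 8.89% of all genes, or 5.63% counting genes called higher. The call of Ankrd1 held in 18 of 27 alternatives, over which the adjusted p ranged from 0.00717 to 0.156, and leaving out any of 7 mice ended it, with an adjusted p of 0.0837 without noncystic replicate 2, 0.0732 without noncystic replicate 5, 0.0831 without noncystic replicate 6, and 0.0554, 0.0717, 0.0545 and 0.0745 without Pkd1KO+ciliaKO replicates 1, 2, 3 and 7. The 3 genotypes in 1 fit gave an adjusted p of 0.156.

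All 10 members had a positive log2 difference in that comparison, with a median of 0.15 against 0.01 over all genes, and 5 had an unadjusted p below 0.05 against 24.3% of all genes. Besides Ankrd1 these were Yap1 (0.12, SE 0.054, adjusted p = 0.191), Lats1 (0.10, SE 0.044, adjusted p = 0.176), Amotl2 (0.26, SE 0.11, adjusted p = 0.138) and Ccn1 (1.27, SE 0.51, adjusted p = 0.133), all by edgeR. Both comparisons with noncystic males share those 8 mice.

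Ccn1 varied widely between the males of a group. It ranged from 11.6 to 76.8 CPM (median 19.0) in noncystic, from 19.99 to 42.6 CPM (37.2) in Pkd1KO and from 14.3 to 249.5 CPM (41.5) in Pkd1KO+ciliaKO males. The highest value was that of Pkd1KO+ciliaKO replicate 2, and the next in that group was 85.3 CPM. Without that mouse the log2 difference from noncystic males was 0.61 (adjusted p = 0.361), and without noncystic replicate 7, at 76.8 CPM, it was 1.71 (adjusted p = 0.0458), all by edgeR. The log2 difference of Ccn1 in Pkd1KO from noncystic males was 0.34 (SE 0.34, adjusted p = 0.603 by edgeR). Leaving out each mouse, this difference was 0.23 to 0.79, with an adjusted p of 0.0418 to 0.751 by edgeR. Ccn2 had ranges of 10.9 to 28.4 CPM in noncystic, 9.87 to 40.6 CPM in Pkd1KO and 12.7 to 37.1 CPM in Pkd1KO+ciliaKO males, which overlapped throughout.

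In females, no member passed in Pkd1KO against noncystic females by edgeR, against 3.34% of all genes, while DESeq2 called Lats1 (adjusted p = 0.0254) and 6.04% of all genes, and 3 members had an unadjusted p below 0.05 against 16.4% of all genes. These were Lats1, Amotl2 and Ajuba. Amotl2 ranged from 118.7 to 192.1 CPM (median 153.2) in noncystic and from 157.6 to 217.1 CPM (173.8) in Pkd1KO females, with a log2 difference of 0.27 (SE 0.10, adjusted p = 0.191 by edgeR). Without the library labelled noncystic replicate 5 its log2 difference was 0.33 (adjusted p = 0.0727). Ankrd1, at 3.88 to 10.4 CPM in noncystic and 5.40 to 9.86 CPM in Pkd1KO females, had a log2 difference of 0.01 (SE 0.20).

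Against Pkd1KO+ciliaKO females, no member of Pkd1KO females passed by edgeR or DESeq2, where 11.7% of all genes did by edgeR, and 1 member, Amotl2, had an unadjusted p below 0.05, against 27.7% of all genes (log2 difference 0.22, SE 0.10, adjusted p = 0.165 by edgeR). In Pkd1KO+ciliaKO against noncystic females, no member passed by edgeR or DESeq2 or had an unadjusted p below 0.05, where edgeR called 2.54% of all genes and 21.4% had an unadjusted p below 0.05. The median log2 differences of the members were 0.04 and 0.05, against -0.01 and 0.01 over all genes. With the 2 libraries that went against their labels left out, no member passed in any of the 3 female comparisons.

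The sexes were compared within each genotype. In noncystic mice, Ankrd1 and Ajuba were lower in males. These were 2 of 10 members, where 27.4% of all genes were called in either direction and 13.3% were lower. Ankrd1 ranged from 3.88 to 10.4 CPM (median 6.60) in noncystic females and from 1.82 to 4.20 CPM (3.12) in noncystic males. Only the lowest female fell within the male range, and the log2 difference, male minus female, was -1.25 (SE 0.37, adjusted p = 0.00866 by edgeR). Ajuba ranged from 76.3 to 96.8 CPM (82.7) in females and from 52.3 to 84.6 CPM (61.2) in males, with a log2 difference of -0.40 (SE 0.10, adjusted p = 0.00322 by edgeR). Without the libraries that went against their labels these differences were -1.16 and -0.36, and both were still called.

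Tubule injury genes were also lower in noncystic males. Of the 7 tubule injury genes 5 were called lower in males, where 13.3% of all genes were. The sum of the 7 was 465.9 to 958.6 CPM in the males and 1221 to 1738 CPM in the females, which did not overlap. Over all mice Spp1 had the highest median of the 7, at 1000 CPM, followed by Clu at 125 CPM and Havcr1 at 20.4 CPM. The sum thus rests largely on Spp1. The part of the injury genes in the sex difference of Ankrd1 was not tested.

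In Pkd1KO mice, Yap1, Lats1 and Lats2 were lower in males. These were 3 of 10 members, where 30.6% of all genes were called in either direction and 14.3% were lower. The log2 differences, male minus female, were -0.17 for Yap1 (SE 0.057, adjusted p = 0.0199), -0.16 for Lats1 (SE 0.049, adjusted p = 0.0124) and -0.28 for Lats2 (SE 0.10, adjusted p = 0.029), all by edgeR. For each the ranges of the sexes overlapped, as in Yap1 with 103.1 to 120.5 CPM in males and 110.9 to 134.2 CPM in females. In Pkd1KO+ciliaKO mice no member passed by edgeR, against 19.4% of all genes, 3 had an unadjusted p below 0.05 against 31.9% of all genes, and DESeq2 called 2, Yap1 and Lats2, against 21.4% of all genes.

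Whether the sexes responded differently to genotype was tested directly, as an interaction in 1 fit of the 45 mice. No member passed in any of the 3 interactions by edgeR or DESeq2, where edgeR called 0.0126%, 0.221% and 0.0316% of all genes for Pkd1KO against noncystic, Pkd1KO against Pkd1KO+ciliaKO and Pkd1KO+ciliaKO against noncystic. At an unadjusted p below 0.05 there were 1, 0 and 2 members, against 8.08%, 7.94% and 5.49% of all genes. The smallest p was that of Ankrd1, whose log2 change from noncystic to Pkd1KO was 1.29 higher in males than in females (SE 0.51, adjusted p = 0.461 by edgeR). The calls above that were made in 1 sex are not shown to differ from the other.

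The wider pathway was read from lists of the kinases and adaptors, the upstream regulators, the LIM proteins, the YAP and TAZ cofactors and the target genes. These lists were also chosen with earlier results of these data known. Of its 55 genes besides the 10 members, 52 were tested in males and 53 in females. In Pkd1KO against noncystic mice, 2 were called higher and 1 lower in males, 5.77% of those tested against 6.30% of all genes, and 3 were called higher and 2 lower in females, 9.43% against 3.34%. In Pkd1KO against Pkd1KO+ciliaKO mice, 1 was lower in males, 1.92% against 3.77% of all genes, and 2 were higher and 2 lower in females, 7.55% against 11.7%. In Pkd1KO+ciliaKO against noncystic mice, 3 were higher and 1 lower in males, 7.69% against 8.89% of all genes, and 1 was lower in females, 1.89% against 2.54%. Medians of their log2 differences lay between -0.02 and 0.07, close to those of all genes.

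Nuak2, a stress-responsive kinase and reported YAP target, fell in 4 of the 6 comparisons. In females it ranged from 90.6 to 166.4 CPM (median 134.8) in noncystic, from 31.3 to 65.3 CPM (39.1) in Pkd1KO and from 51.9 to 139.2 CPM (104.8) in Pkd1KO+ciliaKO mice. All Pkd1KO females lay below all noncystic females, and the library labelled Pkd1KO+ciliaKO replicate 6 was the highest of its group. The log2 difference of Pkd1KO females was -1.56 from noncystic (SE 0.17, adjusted p = 4.78e-05) and -1.12 from Pkd1KO+ciliaKO mice (SE 0.21, adjusted p = 0.00453), by edgeR, and -1.51 and -0.999 without the libraries that went against their labels. In males it ranged from 84.2 to 172.7 CPM in noncystic, 45.9 to 101.8 CPM in Pkd1KO and 59.5 to 126.1 CPM in Pkd1KO+ciliaKO mice, and it was lower than in noncystic males in both, by -0.81 (SE 0.18, adjusted p = 0.0114) and -0.60 (SE 0.16, adjusted p = 0.0228). Between the latter groups of males the difference was -0.21 (SE 0.19, adjusted p = 0.575). In the interaction test no Nuak2 response passed, with adjusted p of 0.387, 0.245 and 1 by edgeR. With a replicate block both male calls were lost, at an adjusted p of 0.0579 and 0.0529 by edgeR. Replicate numbers did not pair the mice, so the block stands for no known factor.

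Ptpn14, a phosphatase that binds YAP and is also a target of it, was higher in Pkd1KO than in noncystic mice of both sexes. In females it ranged from 129.8 to 192.9 CPM (median 161.1) in noncystic and from 194.1 to 263.1 CPM (228.5) in Pkd1KO mice, which did not overlap, and from 158.4 to 204.0 CPM (184.4) in Pkd1KO+ciliaKO mice. The log2 difference of Pkd1KO females was 0.54 (SE 0.085, adjusted p = 0.00152) from noncystic and 0.33 (SE 0.075, adjusted p = 0.011) from Pkd1KO+ciliaKO females, by edgeR. In males the difference from noncystic mice was 0.65 (SE 0.17, adjusted p = 0.0326), with Pkd1KO replicates 3 and 4 again highest, at 314.9 and 238.5 CPM. This call was lost in 9 of 25 alternatives, on log2(TPM + 1) and log2(TPM + 0.1), with an adjusted p of Ptpn14 of 0.141 and 0.126, and without noncystic replicate 2, 4, 5, 6 or 7 or Pkd1KO replicate 3 or 4, with 0.0523 to 0.0687. The female call against Pkd1KO+ciliaKO mice was lost in 2 of 24, with an adjusted p of up to 0.0879. Between the males of these groups Ptpn14 was not called, at 139.3 to 314.9 CPM in Pkd1KO and 126.6 to 291.7 CPM in Pkd1KO+ciliaKO mice.

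Wtip, like Ajuba a LIM protein that binds LATS kinases, was higher in Pkd1KO than in noncystic mice by 0.52 in males (SE 0.12, adjusted p = 0.0144) and by 0.39 in females (SE 0.10, adjusted p = 0.045), on the log2 scale by edgeR. In males it was also higher in Pkd1KO+ciliaKO mice, by 0.40 (SE 0.082, adjusted p = 0.00521), and in females Pkd1KO exceeded Pkd1KO+ciliaKO mice by 0.34 (SE 0.10, adjusted p = 0.0426). Its levels were 14.1 to 19.4 CPM in noncystic, 17.1 to 31.0 CPM in Pkd1KO and 17.6 to 24.5 CPM in Pkd1KO+ciliaKO males. Both female calls of Wtip were lost in 14 alternatives each, of 25 and 24, and the second also without the libraries that went against their labels (adjusted p = 0.0787), while in males the call of Pkd1KO against noncystic mice was lost in 2 of 25 (adjusted p up to 0.115) and that of Pkd1KO+ciliaKO against noncystic mice held in 27 of 27. Limd1, the remaining gene of this list, passed in none of the 6 comparisons of genotypes.

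Wwc1, which encodes the upstream regulator KIBRA, was lower in females of both mutant groups than in noncystic females. It ranged from 791.1 to 930.8 CPM (median 822.8) in noncystic, from 621.9 to 811.3 CPM (693.8) in Pkd1KO and from 598.1 to 787.9 CPM in Pkd1KO+ciliaKO females. The log2 differences were -0.25 (SE 0.062, adjusted p = 0.0366) and -0.28 (SE 0.069, adjusted p = 0.0462) by edgeR, and no Pkd1KO+ciliaKO female reached the noncystic range. These calls were lost in 14 of 25 and 16 of 23 alternatives, and without the libraries that went against their labels the adjusted p of Wwc1 was 0.0517 and 0.0217. Strn3, a subunit of a phosphatase complex that acts on the MST kinases, was lower in Pkd1KO than in Pkd1KO+ciliaKO males by -0.22 (SE 0.061, adjusted p = 0.0484), a call that was lost in 18 of 26 alternatives, the leaving out of the 4 males that stood apart among them (adjusted p = 0.0709).

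**Figure D3:**
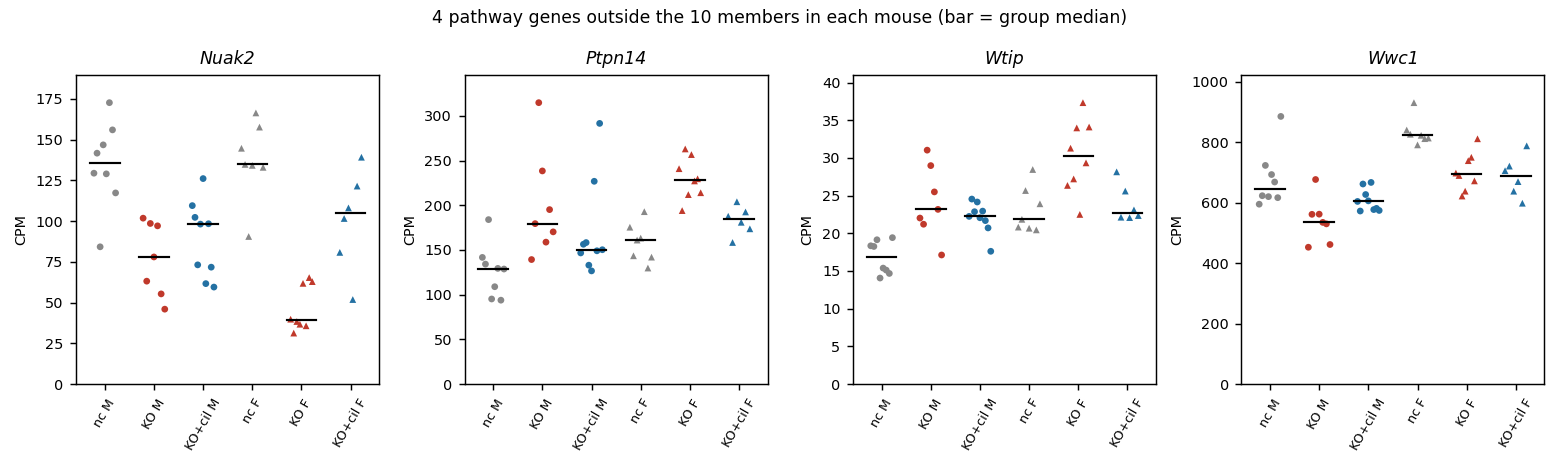
CPM of Nuak2, Ptpn14, Wtip and Wwc1 in each mouse, on axes that start at 0; nc is noncystic, KO is Pkd1KO, KO+cil is Pkd1KO+ciliaKO, M is male (circles), F is female (triangles), and bars are group medians. Nuak2 in Pkd1KO females, at 31.3 to 65.3 CPM, lies below all noncystic females, and Ptpn14 in Pkd1KO females lies above them.

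The promoters of these genes were read for the TEAD motif GGAATG, or CATTCC on the other strand, which is the core of the letters TEAD proteins bind. RefSeq windows on GRCm38.p6 were at hand for 8 of the 10 members, and the 250 bases before the RefSeq start were searched. This start lies within the annotated span of Amotl2 and of Ankrd1 given above, and both Lats2 starts lie within its span, chr14:57689662-57758388. The start of the second Wwtr1 window also lies inside the Wwtr1 span, chr3:57455649-57575910. The motif was found in 6 of these 8 genes, of which Wwtr1 and Lats2 had 2 windows each, against 12.6% of all 32851 windows. Genes and windows are unlike units, and several members are known targets of the pathway, so the share is a description and no test. There were 2 matches each in Ankrd1 and Ajuba, 1 each in Yap1, Wwtr1, Amotl2 and Ccn1, and 0 in Lats1 and in both windows of Lats2. Of the pathway genes above, Ptpn14 had 1 match and Wtip 4. The matches do not show that a factor bound there, and a window without one says only that these letters are not in it. The sites of the members are shown on the strand of the gene, 5′ to 3′, with the motif in capitals, because they let the targets of the pathway be compared.
Yap1 (chr9:8004720-8004749, - strand): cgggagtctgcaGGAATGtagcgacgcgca
Wwtr1 (chr3:57576029-57576058, - strand): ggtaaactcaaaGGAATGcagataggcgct
Amotl2 (chr9:102717727-102717756, + strand): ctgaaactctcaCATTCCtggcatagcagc
Ankrd1, distal (chr19:36120037-36120066, - strand): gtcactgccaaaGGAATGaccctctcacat
Ankrd1, proximal (chr19:36119950-36119979, - strand): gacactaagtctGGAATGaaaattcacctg
Ajuba, distal (chr14:54577830-54577859, - strand): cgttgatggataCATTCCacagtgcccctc
Ajuba, proximal (chr14:54577808-54577837, - strand): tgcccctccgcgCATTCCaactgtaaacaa

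The whole 250 bases before the start are shown for Ccn1, the most variable member, and for Wtip, with the most matches of the genes searched. The match of Ccn1 began 103 bases before the start, and those of Wtip 245, 134, 100 and 10 bases before it.
Ccn1 (chr3:145649986-145650235, - strand): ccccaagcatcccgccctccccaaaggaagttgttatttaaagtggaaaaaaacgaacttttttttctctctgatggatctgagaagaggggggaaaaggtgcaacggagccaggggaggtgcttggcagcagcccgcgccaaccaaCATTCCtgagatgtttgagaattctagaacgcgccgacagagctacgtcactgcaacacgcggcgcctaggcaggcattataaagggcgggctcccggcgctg
Wtip (chr7:34133269-34133518, - strand): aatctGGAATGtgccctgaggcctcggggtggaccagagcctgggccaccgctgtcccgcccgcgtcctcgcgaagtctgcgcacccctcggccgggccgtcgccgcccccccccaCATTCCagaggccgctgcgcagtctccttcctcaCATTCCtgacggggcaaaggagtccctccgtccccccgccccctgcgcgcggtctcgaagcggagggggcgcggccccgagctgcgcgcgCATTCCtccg
Both Wwtr1, among the steadiest genes, and Ccn1 and Ankrd1, among the most variable, held the motif.

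Members were next compared across the 45 mice after the mean of each group had been removed, as a description of how they varied together. All points share the scaling of the libraries and differ in cell makeup. The kinases and coactivators were related most by Yap1 and Lats1, with a Pearson's r of 0.56, and the targets by Amotl2 with Ccn2 (r = 0.58), Amotl2 with Ajuba (0.54) and Lats2 with Ccn2 (0.54). Yap1 itself had r of 0.05 with Ankrd1, -0.15 with Ccn1, -0.08 with Ccn2 and 0.03 with Amotl2, but of 0.47 with Lats2 and 0.43 with Ajuba.

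**Figure D4:**
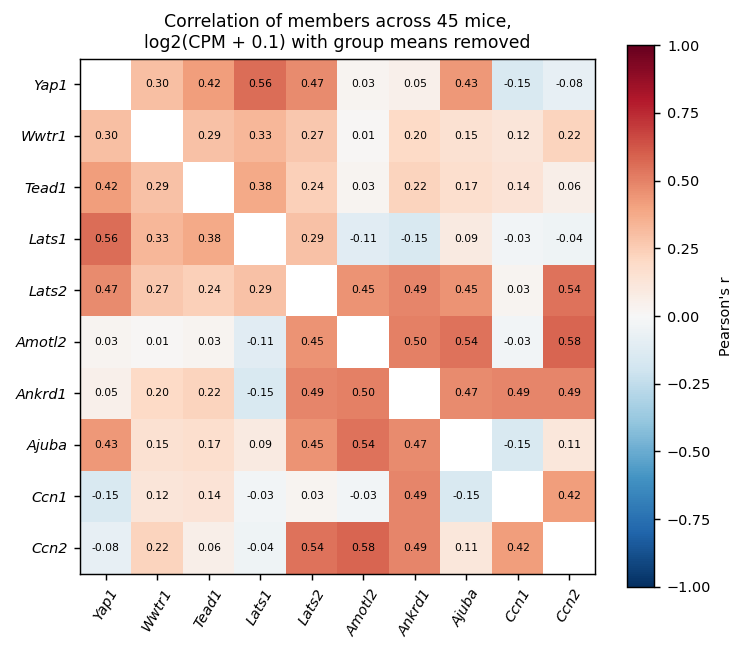
Pearson's r between each pair of the 10 members over the 45 mice, on log2(CPM + 0.1) with group means removed; red is positive and blue negative. Amotl2, Ankrd1, Lats2 and Ccn2 share values of 0.45 to 0.58, and Yap1 shares none above 0.05 with Amotl2, Ankrd1, Ccn1 or Ccn2.

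By the same measure, the genes most like Ccn1 were Fos (r = 0.85), Jun (0.85) and Egr1 (0.82), all transcription factors of the immediate early response. The mean of 14 immediate early genes had r = 0.84 with Ccn1, and within single groups r lay between 0.63 and 0.92 in 6 to 9 mice. Without Pkd1KO+ciliaKO male replicate 2 and noncystic male replicate 7, the mice with the highest Ccn1 in their groups, r over 43 mice was 0.75. Of the 14 genes, Egr2 and Atf3 were called higher in Pkd1KO males against noncystic males, where 648 of all 15991 genes tested were. Fosb and Egr3 were called higher in Pkd1KO+ciliaKO males against noncystic males, where 901 of the 15991 were, or 5.63%. Egr2 and Egr3 were low, with medians of 0.09 and 0.12 CPM over all mice, and each was at 0 in 1 mouse. The median log2 differences of the list were 0.56 and 1.27 in these comparisons, against -0.01 and 0.01 over all genes. The sum of the 14 genes was highest in Pkd1KO+ciliaKO male replicate 2, the mouse that also had the highest Ccn1. It was 2708 CPM there, against a group median of 474 CPM. The part of the immediate early response in the Ccn1 values was not tested.

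**Figure D5:**
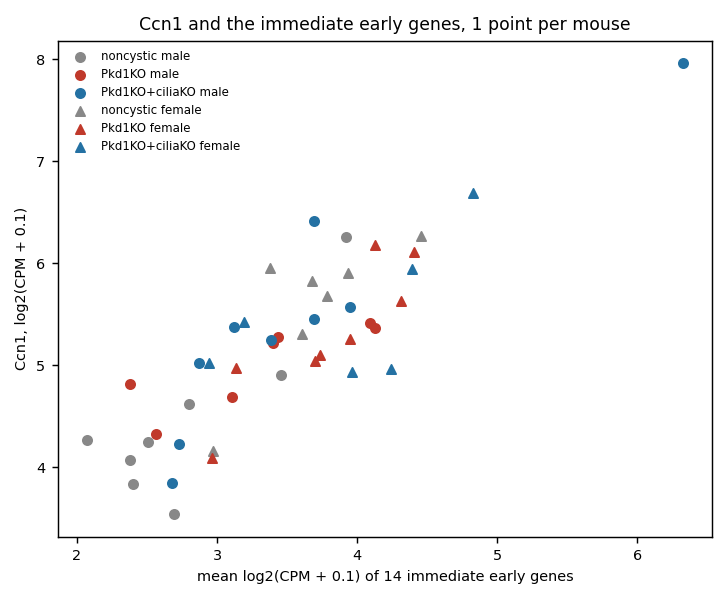
Ccn1 in each mouse, as log2(CPM + 0.1), against the mean of the same measure over 14 immediate early genes; circles are males, triangles are females and colours are genotypes. Mice of all 6 groups lie along 1 band, and Pkd1KO+ciliaKO male replicate 2 lies at its upper end.

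Genes like Ccn2 by this measure were Rhob (r = 0.77) and Dact1 (0.75), and Ccn2 had r = 0.60 with the mean of 10 markers of fibroblasts, pericytes and smooth muscle and 0.50 with that of 7 podocyte markers. The summed level of the former markers ranged from 295.5 to 1535 CPM over the mice, and their part in the Ccn2 values was not tested. Those most like Yap1 were Ip6k1 (0.82), Phf3 (0.81) and Taf4b (0.80). Ankrd1 had r = 0.61 with the mean of the 7 tubule injury genes and Amotl2 0.53.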

How the data were processed

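Kidney TRAP libraries of 45 mice, made after ribosomal RNA depletion, were analysed. Per the study's methods, the authors used fastp 0.20.0 for trimming, STAR 2.7.9 for alignment to GRCm38.p6 and featureCounts 2.0.0 for counting on GENCODE vM25 exons. Strand and multimapping settings are not given in the sources used here. The authors deposited raw counts per gene and TPM tables of protein-coding genes, scaled for each sex apart.

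Counts were tested with edgeR 4.0.16 (TMM, quasi-likelihood test, R 4.3.3) for each pair of genotypes within a sex. The protein-coding genes of the TPM tables were tested, 15991 in males and 15968 in females, which had reached 6 counts in 20% of that sex's mice or more. Sexes and interactions were tested in 1 fit of the 45 mice over 15828 genes. A gene was called where its p, after Benjamini-Hochberg adjustment over all genes tested, did not exceed 0.05. CPM used 1 TMM scaling. Alternatives used DESeq2 1.42.0, limma 3.58.1, other filters and left-out mice. The fits were tested on simulated data. Each mouse is 1 replicate, and all replicate pairs differed beyond sampling noise.

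Besides the members, genes of pathway lists were named when called in at least 2 of the 6 genotype comparisons or with the smallest p of one, those of other lists when called in at least 3, and the 3 genes closest to Yap1, Ccn1 and Ccn2, of which 1 is not reported here. Members and lists were chosen with earlier results of these data known.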

Additional observations from a re-analysis of the deposited data

Results flagged for a closer look

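Of 60 groups of values (10 members in 6 groups), 6 had a mouse far from the others by Dixon's test, where about 3 are flagged by chance at 1 in 20. Ccn1 was at 249.5 CPM in Pkd1KO+ciliaKO male replicate 2 (next 85.3 CPM, 9 mice) and at 76.8 CPM in noncystic male replicate 7 (next 29.9 CPM, 8 mice). The sums of 14 immediate early genes in these mice were 2708 and 732.1 CPM, the highest of their groups. Ajuba was at 123.3 CPM in Pkd1KO male replicate 3 (next 88.4 CPM, 7 mice) and at 117 CPM in Pkd1KO female replicate 7 (next 93.1 CPM, 8 mice). Lats1 was lowest, at 30.6 CPM, in Pkd1KO male replicate 4 (next 34.7 CPM, 7 mice), which had the highest podocyte, endothelial and macrophage marker sums of its group. Lats2 was at 37.5 CPM in noncystic female replicate 1 (next 31.5 CPM, 7 mice). The causes were not tested.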

How the results depend on the processing

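The number of members called changed with the tool or samples in 5 comparisons. In Pkd1KO against noncystic males it was 0, but 1 with DESeq2 and with 3 genotypes in one fit, and 0 to 1 leaving out each mouse. In Pkd1KO+ciliaKO against noncystic males it was 1, but 0 with 3 genotypes in one fit, 0 with a replicate block, 4 with voom quality weights (Yap1, Lats1, Ajuba and Ankrd1) and 0 to 2 leaving out each mouse. In Pkd1KO against noncystic females it was 0, but 1 with DESeq2 or voom and 0 to 1 leaving out each mouse. In Pkd1KO+ciliaKO against noncystic females it was 0, but 1 on log2(TPM + 1) and 1 on log2(TPM + 0.1). Between the sexes in Pkd1KO+ciliaKO mice it was 0, but 2 with DESeq2, 1 without the 2 female libraries against their labels and 2 without the 4 males that stood apart. Both comparisons of Pkd1KO with Pkd1KO+ciliaKO mice gave 0 members in every setting run. Of 120 member values, 26 changed sign in at least 1 setting, none with an adjusted p below 0.189. The cause was not tested.

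Replicate numbers did not pair the mice, as same-numbered deviations correlated above 0.1 in 3 of 7, 3 of 7, 1 of 8, 2 of 7, 1 of 6 and 3 of 6 pairs. The 6 genotype comparisons are listed first for males and then for females. Within a sex the order is Pkd1KO against noncystic, Pkd1KO against Pkd1KO+ciliaKO, and Pkd1KO+ciliaKO against noncystic. Genes called in the 6 were 1008, 603, 1422, 533, 1869 and 405. With the replicate block they were 800, 170, 764, 294, 612 and 100, with DESeq2 1640, 1234, 2157, 964, 2502 and 1269, and with voom 1475, 1389, 2803, 809, 2634 and 1357. With 3 genotypes in one fit the second was 929, and on log2(TPM + 1) and log2(TPM + 0.1) the first was 625 and 669 and the last 1000 and 1007. Without the 4 males that stood apart 2240 genes were called in the third, and 2359 without noncystic replicate 3 alone. Without the 2 female libraries 926 were called in the last, which ranged from 8 to 746 leaving out each mouse. Leaving out noncystic female replicate 6 gave 349 in the fourth, and Pkd1KO+ciliaKO female replicate 3 1241 in the fifth. Interactions gave 2, 35 and 5 genes, and 18, 72 and 21 with DESeq2. Without the 4 males, 5547 genes in place of 3064 differed between the sexes in Pkd1KO+ciliaKO mice. On log2(TPM + 0.1) the median of all genes moved by -0.12 in the second and by 0.118 in the last comparison, and the share of calls that were higher went from 52.7% to 27.9% and from 26.4% to 86.8%.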

Other observations

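Slc5a2, the glucose transporter SGLT2 of the proximal tubule, was lower in Pkd1KO+ciliaKO than in noncystic males by -4.48 on the log2 scale (SE 0.16, adjusted p = 1.51e-12 by edgeR), at 2.72 to 5.53 CPM against 52.7 to 98.1 CPM. The 2 female libraries whose Kif3a went against their labels also did so for Slc5a2, at 6.89 CPM in the library labelled noncystic replicate 5 and 67.1 CPM in that labelled Pkd1KO+ciliaKO replicate 6.

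Ms4a2, a receptor subunit of mast cells, was higher in Pkd1KO than in noncystic mice by 3.31 in males (SE 0.35, adjusted p = 8.28e-05) and 2.77 in females (SE 0.50, adjusted p = 0.00411), at levels of at most 6.54 CPM. No other gene of the 6 mast cell markers was called in these comparisons, and Cma1, Cpa3 and Mcpt4 were at 0 in 18, 19 and 17 mice. Ms4a2 was also above all noncystic males (0.0703 to 0.228 CPM) in all Pkd1KO+ciliaKO males (0.324 to 1.42 CPM). In females the library labelled noncystic replicate 5, which went against its label, was at 1.78 CPM, and the other noncystic mice were at 0.393 CPM or below. Csf1r, a macrophage receptor, was higher in Pkd1KO than in Pkd1KO+ciliaKO mice by 0.77 in males (SE 0.12, adjusted p = 0.00187) and 0.78 in females (SE 0.16, adjusted p = 0.00581). It was the only one of 7 macrophage markers called there, and the median log2 difference of the 7 was 1.23 in males and -0.11 in females. In Pkd1KO and Pkd1KO+ciliaKO mice, the 4 thick ascending limb markers had median sums of 2120 and 3770 CPM in males and 3760 and 5030 CPM in females. Those of the 3 distal convoluted tubule markers were 332 and 420 CPM in males and 430 and 490 CPM in females. In the same comparisons Slc12a1, the cotransporter NKCC2 of the thick ascending limb, was lower by -0.73 (SE 0.20, adjusted p = 0.0454) and -0.53 (SE 0.11, adjusted p = 0.00622). Pvalb, of the distal convoluted tubule, was lower by -2.37 (SE 0.51, adjusted p = 0.0139) and -1.68 (SE 0.47, adjusted p = 0.0321), all log2 differences by edgeR. Pvalb was at 3.41, 6.54 and 10.3 CPM in Pkd1KO+ciliaKO male replicates 2, 6 and 9, and at 27.8 CPM or more in the rest. Female replicates 1 and 3 and the library labelled replicate 6 were at 5.74, 5.26 and 9.97 CPM, and the rest at 35.1 CPM or more. The highest Pkd1KO male and female were at 11.7 and 12.7 CPM. Noncystic mice were at 4.19 to 14.4 CPM in males and 3.69 to 11.3 CPM in females. These ranges overlapped those of Pkd1KO mice, and the highest Pvalb levels were those of Pkd1KO+ciliaKO mice.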
